A study of Mus musculus with 12 samples.

Results

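The irradiation response that Atm-WT and Atm-KO mouse embryonic fibroblasts have in common was measured over all 12 of the 12 samples of the series. Atm-WT cells carry an intact Atm gene and Atm-KO cells are labelled as lacking it. The 4 groups were nonirradiated Atm-WT, irradiated Atm-WT, nonirradiated Atm-KO and irradiated Atm-KO cells, with 3 samples each. Irradiated cultures received 4.32 Gy and were kept for 72 h at 37 °C before RNA was taken, and nonirradiated cultures (0 Gy) were sampled at the same time. Each sample was hybridised to 1 single-colour Agilent array. An irradiated and a nonirradiated sample of the same genotype and replicate number were treated as a pair, which gave 6 pairs, called Atm-WT pairs 1 to 3 and Atm-KO pairs 1 to 3 below. The response is the mean within-pair difference, irradiated (IR) minus nonirradiated (NonIR), over the 6 pairs. The labels give no passage number, no sex, no Atm allele and no embryo of origin, so p-values refer to the scatter among these samples, part of which may be technical.

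Atm is the kinase that senses DNA double-strand breaks and activates p53, the transcription factor that raises the cell cycle inhibitor Cdkn1a and stops division. Cells that stay arrested after radiation can enter senescence, a lasting exit from the cycle in which proliferation genes are silent, the nuclear lamina protein lamin B1 is low and cytokines, chemokines and proteases are secreted. DNA that escapes into the cytoplasm of damaged cells can be sensed like viral DNA and lead to type I interferon and its target genes. Promoters of interferon targets often carry an interferon-stimulated response element, those of DNA replication genes an E2F site, and those of mitosis genes a cell cycle homology region bound by the DREAM and MuvB complexes.

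The 3 gene groups with the most members called, interferon, replication and mitosis genes, are first shown by promoters picked for holding the group's sequence word. Not every member holds it, and the shares follow the sequences. The sequences are RefSeq promoters of the GRCm38.p6 build, from 250 bases before to 50 bases after the annotated start, read 5′ to 3′ on the strand of the gene. For each group they are the pair of called members with the smallest adjusted p among those with a match. Members on 1 chromosome were left out of this choice. In each promoter capitals mark only the words of its own group, on either strand: GAAANNGAAA (interferon element), TTTCCCGC or TTTGGCGC (E2F), or TTTGAA or TTCGAA (cell cycle homology region), the last of which reads the same on both strands. None of these words contains another. Of the other groups' words, left in lower case, the 6 promoters held 1, an interferon element in Bub1b.
Interferon targets, which rose. The Cxcl10 window is chr5:92348840-92349139 on the minus strand, and the Rsad2 window is chr12:26456403-26456702 on the minus strand.
Cxcl10: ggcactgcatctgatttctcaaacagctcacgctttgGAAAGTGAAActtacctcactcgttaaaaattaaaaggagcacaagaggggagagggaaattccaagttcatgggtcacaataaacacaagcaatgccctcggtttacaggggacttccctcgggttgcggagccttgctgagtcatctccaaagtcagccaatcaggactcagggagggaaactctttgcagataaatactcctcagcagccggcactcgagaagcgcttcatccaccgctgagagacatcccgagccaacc
Rsad2: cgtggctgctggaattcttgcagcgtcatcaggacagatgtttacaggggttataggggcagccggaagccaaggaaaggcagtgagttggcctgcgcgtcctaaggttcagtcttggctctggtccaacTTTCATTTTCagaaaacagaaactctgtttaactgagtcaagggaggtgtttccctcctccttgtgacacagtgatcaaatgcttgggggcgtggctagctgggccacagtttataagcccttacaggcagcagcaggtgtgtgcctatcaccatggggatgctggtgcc
Replication genes, which fell. The Mcm6 window is chr1:128359656-128359955 on the minus strand, and the Mcm5 window is chr8:75109259-75109558 on the plus strand.
Mcm6: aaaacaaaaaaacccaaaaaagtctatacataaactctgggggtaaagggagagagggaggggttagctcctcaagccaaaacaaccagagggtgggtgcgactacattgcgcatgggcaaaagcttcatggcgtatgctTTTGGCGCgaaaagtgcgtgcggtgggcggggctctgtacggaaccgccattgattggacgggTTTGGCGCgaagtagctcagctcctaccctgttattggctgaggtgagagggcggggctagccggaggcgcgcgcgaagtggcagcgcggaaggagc
Mcm5: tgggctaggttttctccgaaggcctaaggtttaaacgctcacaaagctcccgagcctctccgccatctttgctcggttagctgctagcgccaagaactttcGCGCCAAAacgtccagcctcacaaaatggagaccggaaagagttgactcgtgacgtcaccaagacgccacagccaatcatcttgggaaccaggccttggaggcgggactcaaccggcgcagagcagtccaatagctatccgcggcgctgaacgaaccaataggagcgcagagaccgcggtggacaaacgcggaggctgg
Mitosis genes, which fell. The Bub1b window is chr2:118597961-118598260 on the plus strand, and the Ccnb2 window is chr9:70421505-70421804 on the minus strand.
Bub1b: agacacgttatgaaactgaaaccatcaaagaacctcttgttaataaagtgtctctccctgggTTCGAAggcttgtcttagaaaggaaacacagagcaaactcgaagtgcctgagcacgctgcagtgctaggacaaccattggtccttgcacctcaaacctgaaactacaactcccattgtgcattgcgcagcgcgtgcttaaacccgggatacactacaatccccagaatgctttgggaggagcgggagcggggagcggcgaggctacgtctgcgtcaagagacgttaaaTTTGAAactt
Ccnb2: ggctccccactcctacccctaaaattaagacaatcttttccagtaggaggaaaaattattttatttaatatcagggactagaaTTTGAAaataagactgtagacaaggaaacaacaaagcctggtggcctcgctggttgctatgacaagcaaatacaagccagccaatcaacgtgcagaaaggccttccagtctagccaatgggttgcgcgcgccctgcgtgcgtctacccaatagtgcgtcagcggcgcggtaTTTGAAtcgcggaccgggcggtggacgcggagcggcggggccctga

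The interferon element was found in 3.44% of all 32851 RefSeq promoters, in 3.01% of the 13109 promoters of tested features, and in 15 of 31 promoters (48.4%) of the interferon list members tested, where 28 of the genes had a promoter in the table. It was present in 10.5% of the 592 promoters of features that rose after irradiation and in 3.21% of the 903 promoters of features that fell. The E2F words were in 1.56% of all promoters and 2.59% of those of tested features, in 11 of 44 (25%) of the replication list, in 1.52% of promoters of features that rose and in 4.43% of those of features that fell. The cell cycle homology words are short and were in 19.2% of all promoters and 13.9% of those of tested features. They were in 28 of 38 (73.7%) of the mitosis list, in 14% of promoters of features that rose and in 16.9% of those of features that fell. These are counts of letters in a fixed window, and no binding was measured.

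Signal is given throughout as log2 processed intensity relative to the 75th percentile of the same array, so 0 is the level of that percentile and a difference of 1 is a doubling. Each ± is the limma standard error over 6 pairs unless said otherwise, and adjusted p-values come from limma, with Benjamini-Hochberg correction across the 18430 features tested, of which 12805 carried a gene name. A feature is said to be called, or to have risen or fallen, when its adjusted p was under 0.05. The 75th percentile was 379 to 757 intensity units, 56.0% to 65.0% of probes were well above background, and 0 spots were saturated. Background flags moved with the treatment: a larger share of probes was well above background on the irradiated array in 6 of 6 pairs. Irradiated samples always lay at slide positions 2 and 4 and nonirradiated samples at 1 and 3, and an effect of position cannot be told apart from irradiation. Both arrays of each pair lay on 1 of the 3 slides, so within-pair differences are also within-slide differences. Slide 1 held Atm-WT pairs 1 and 2, slide 2 Atm-WT pair 3 and Atm-KO pair 1, and slide 3 Atm-KO pairs 2 and 3. Differences between genotypes, in level or in irradiation effect, are thus in large part also differences between slides. The Atm probe read -5.65 to -2.87 on Atm-WT arrays and -7.50 to -5.43 on Atm-KO arrays, and its irradiation effect was 0.06 ± 0.21 (adjusted p = 0.874). The labels do not say whether the probe lies in the deleted part.

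Irradiation changed 2175 of the 18430 features (11.8%) over both genotypes, of which 959 rose (5.2%) and 1216 fell (6.6%). Named genes made up 1495 of them, 605 higher and 890 lower. The median absolute change of a called feature was 0.73, against a median difference of -0.03 over all features, and 341 rose and 165 fell by at least 2-fold on average. All 6 pairs moved alike for 4071 features (22.1%), 1443 higher (7.83%) and 2628 lower (14.3%). Both criteria held for 836 features that rose (4.54%) and 1163 that fell (6.31%), and 176 called features had at least 1 pair that went the other way. All 2175 had the same sign in the mean of the 3 Atm-WT pairs and in that of the 3 Atm-KO pairs, a property that the call on their common mean favours. Within a genotype, with 3 pairs, 417 features were called in Atm-WT cells (2.26%) and 377 in Atm-KO cells (2.05%), and 1616 of the 2175 were called in neither genotype alone.

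Atm-KO pair 1 differed in scale from the rest. Its median absolute difference over all features was 0.631, against 0.226 to 0.289 in the other pairs. Its median difference over all features was -0.27, against -0.09 to 0.03 in the others. Without it 2940 features were called, and 1965 of the 2175 were among them. The count fell to 914 without Atm-WT pair 1, to 1182 without Atm-WT pair 2, to 1278 without Atm-WT pair 3 and to 946 without Atm-KO pair 3. Without the pair block 459 features were called. Centring arrays on their median in place of the 75th percentile moved all differences down, to a median of -0.11, and gave 735 higher and 2503 lower, so that 22.7% of calls were higher in place of 44.1%. Normexp background correction, which compresses dim probes, called 290 features, all of them among the 2175, and turned the sign of 269 others of the 2175.

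**Figure D1:**
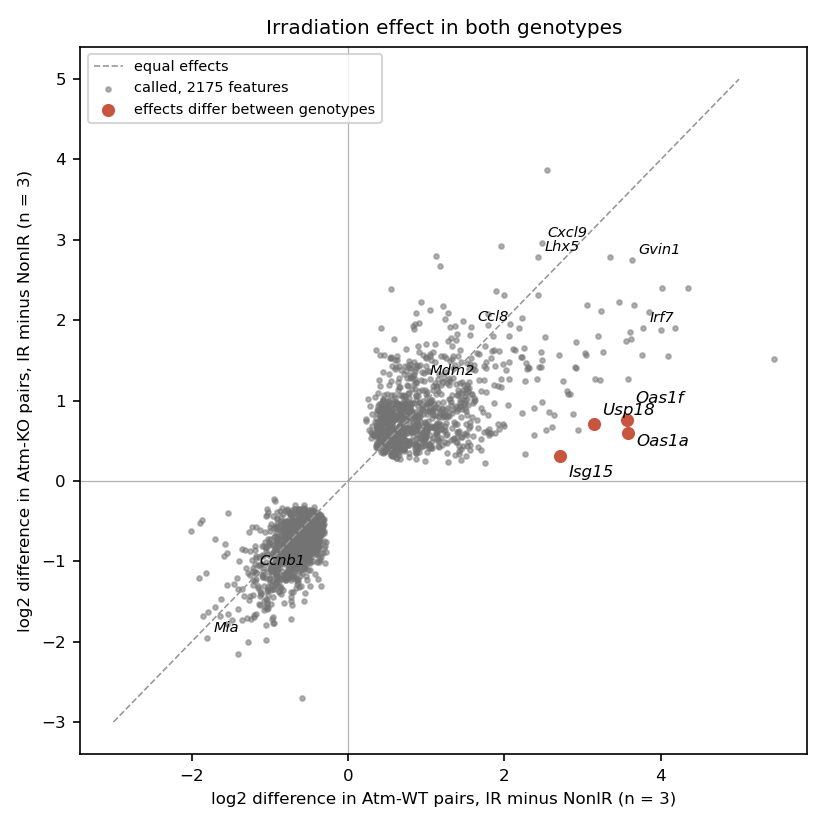
Irradiation effect (log2 difference, IR minus NonIR) in the 3 Atm-WT pairs on the horizontal axis and the 3 Atm-KO pairs on the vertical axis, 1 point for each of the 2175 called features, with the line of equal effects dashed. Every point lies in the lower left or upper right quadrant, and the 4 features whose effects differed between genotypes (Isg15, Usp18, Oas1a and Oas1f, red) lie to the right of the line.

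Interferon-stimulated genes rose over the 6 pairs. Of 37 members tested, 32 rose and 0 fell (86.5% called, against 11.8% of all features), and 29 were higher in all 6 pairs. The median difference was 1.48, a 2.79-fold rise. The median was 2.64, 2.0 and 2.26 in Atm-WT pairs 1 to 3 and 0.92, 0.48 and 0.73 in Atm-KO pairs 1 to 3. The response was thus positive in every pair, and each Atm-WT pair lay above each Atm-KO pair. Within a genotype, 33 of the 37 were called higher in the 3 Atm-WT pairs and 6 in the 3 Atm-KO pairs. In the Atm-KO pairs 36 of the 37 mean differences were above 0. Of all features, 2.26% were called in Atm-WT and 2.05% in Atm-KO cells, in either direction.

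Cxcl10, a chemokine that attracts T cells, had signals of -1.39, -0.89 and -1.05 in nonirradiated cells and of 2.08, 2.20 and 1.97 in irradiated cells of Atm-WT pairs 1 to 3, the order used for all values below. The Atm-KO signals went from 1.99, 1.13 and 0.57 to 3.95, 2.76 and 2.39. Each irradiated sample was above every nonirradiated sample of its genotype, and the rise was 2.50 ± 0.25 (adjusted p = 0.000998). Irf7, the transcription factor that amplifies interferon production, read -1.63, -0.33 and -0.52 in Atm-WT cells without irradiation and 2.75, 2.95 and 3.13 with it. Atm-KO samples read 1.74, 2.61 and 2.40, and then 3.85, 4.18 and 4.41. It rose by 2.83 ± 0.34 (adjusted p = 0.00166), from a higher level without irradiation in Atm-KO cells. Zbp1, a sensor of left-handed nucleic acid, rose by 2.98 ± 0.32 (adjusted p = 0.00109). Its pair differences were 3.41 to 4.27 in Atm-WT and 1.89 to 2.39 in Atm-KO cells. Rsad2, the antiviral enzyme viperin, rose by 3.21 ± 0.39 (adjusted p = 0.00165). Its pair differences were 3.50 to 4.59 in Atm-WT and 1.26 to 3.81 in Atm-KO cells.

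Sensors of cytoplasmic RNA rose, Ifih1 (MDA5) by 1.86 ± 0.28 and Dhx58 by 1.58 ± 0.33. The signalling factor Stat2 rose by 1.34 ± 0.24. Effectors that bind viral RNA, Ifit3 and Ifit1, rose by 2.65 ± 0.40 and 2.22 ± 0.36, and the antigen presentation genes Tap1, Psmb8 and Psmb9 by 1.24 ± 0.25, 1.0 ± 0.22 and 0.85 ± 0.23. Their adjusted p-values were between 0.00444 and 0.0418. The smallest rises among the 32 were those of Parp12, at 0.75 ± 0.20, and Psmb9. Parp9, Parp12, Psmb9 and Xaf1 were called although 1 Atm-KO pair of each lay at or below 0 (-0.05, -0.05, -0.10 and -0.00).

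The count of 32 was 16, 23 and 19 without Atm-WT pair 1, 2 or 3. It was 28, 33 and 28 without Atm-KO pair 1, 2 or 3. It was 12 without slide 1 (Atm-WT pairs 1 and 2) and 10 without slide 2 (Atm-WT pair 3 and Atm-KO pair 1). Without slide 3 (Atm-KO pairs 2 and 3) it was 32. With all pairs kept, it was 13 with no filter on dim probes, 22 with normexp correction and 24 without the pair block. The list medians were 1.11, 1.40 and 1.97 without slide 1, 2 or 3. The median thus moved less than the count without slides 1 or 2, and more without slide 3.

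In 4 interferon targets Atm-KO cells showed a smaller irradiation effect than Atm-WT cells did, and these were the only features of the 18430 (0.0217%) called in the test of that difference, against 609 (3.3%) at an unadjusted p under 0.05. Oas1a, which makes the messenger that activates RNase L, read -1.37, -0.52 and -0.84 in nonirradiated Atm-WT samples and 2.51, 2.74 and 2.76 in irradiated ones. The Atm-KO signals were 4.01, 4.35 and 4.03, and then 4.58, 4.81 and 4.77. All Atm-KO samples were thus above all Atm-WT samples, and the rise was 3.58 in Atm-WT and 0.59 in Atm-KO cells. The difference of the effects was -2.99 ± 0.27 (95% interval -3.59 to -2.38, adjusted p = 0.0167).

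Isg15, a ubiquitin-like protein attached to other proteins, read 3.56, 4.54 and 4.46 and then 6.59, 7.19 and 6.92 in Atm-WT samples. Atm-KO samples read 6.61, 6.96 and 6.80 and then 6.92, 7.31 and 7.06. Its effects were 2.71 and 0.31, which differ by -2.40 ± 0.26 (95% interval -2.98 to -1.82, adjusted p = 0.0287). Usp18, which removes Isg15, and Oas1f, a relative of Oas1a, differed by -2.43 ± 0.26 and -2.81 ± 0.26. In each of the 4 genes, nonirradiated Atm-KO samples stood near or above the level of irradiated Atm-WT samples. The number of such calls was 0 to 3 when 1 pair was left out (0 without Atm-WT pair 1, Atm-WT pair 3, Atm-KO pair 1 or Atm-KO pair 3), 1 without the pair block, 0 with quantile normalization, 0 with no filter on dim probes, 2 with median centring, 9 with normexp correction and 13 among features well above background on all 12 arrays. For called features other than these 4 a difference between genotypes was not shown after adjustment, which does not show that the effects were equal. Of the 2175 called features, 154 had an unadjusted p under 0.05 in limma's test of that difference.

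Secreted inflammatory genes of the kind found in senescent fibroblasts rose over the 6 pairs. Of 43 members tested, 18 rose and 1 fell (44.2% called, against 11.8% of all features). The median difference was 0.47, with pair medians between 0.42 and 0.65. The count of 18 was 15 to 21 when 1 pair was left out, 10 without slide 1 and 8 with normexp correction. Within a genotype, 7 were called higher in Atm-WT and 13 in Atm-KO cells. Of all features, 2.26% and 2.05% were called there in either direction. Among chemokines, Ccl5 read -0.70, 0.11 and 0.21 in Atm-WT cells without irradiation and 1.87, 1.97 and 2.1 with it. It read 2.13, 2.83 and 2.66 and then 3.78, 4.34 and 4.41 in Atm-KO samples. Nonirradiated Atm-KO cells were above irradiated Atm-WT cells, and the rise on top of that level was 1.87 ± 0.15, or 3.66-fold (adjusted p = 0.000703). Ccl8 rose by 1.74 ± 0.16, with signals from -1.52 to 0.78 in the 6 nonirradiated samples and from 0.64 to 2.16 in the irradiated ones. The monocyte attractants Ccl2 and Ccl7 rose by 1.41 ± 0.19 and 0.95 ± 0.13, and Ccl20 by 1.26 ± 0.27.

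The cytokine Il6 rose by 1.22 ± 0.15 (adjusted p = 0.00216), with pair differences from 0.50 to 1.51. Its signals were dim, between -4.17 and -0.24, and with normexp correction the rise was 0.60 and was no longer called. Plaur, the urokinase receptor, rose by 0.55 ± 0.12. The matrix metalloproteinases Mmp10, Mmp13 and Mmp3 rose by 1.70 ± 0.22, 1.48 ± 0.27 and 1.19 ± 0.22. Mmp10 was also dim and its rise was 0.22 with normexp correction. The growth factors Areg, Ereg and Fgf2 rose by 1.1 ± 0.16, 1.53 ± 0.28 and 0.83 ± 0.15, and with normexp correction Areg and Ereg went to -0.11 and -0.06. The member that fell, Igfbp5, binds insulin-like growth factors, and fell by 0.59 ± 0.16 (adjusted p = 0.0431).

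Complement genes were called in 3 of 15 cases (20%, against 11.8% of all features), all higher, with a list median of 0.26. Cfb, factor B of the alternative pathway, read -1.23, 0.60 and 0.31 and then 0.96, 2.15 and 2.37 in Atm-WT samples. Atm-KO samples read 0.17, 1.08 and 0.83 and then 1.73, 2.40 and 2.80. It rose in every pair by 1.31 to 2.19 (mean 1.77 ± 0.15, adjusted p = 0.000703). C2 rose by 0.93 ± 0.14 and C4b by 0.78 ± 0.17.

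**Figure D2:**
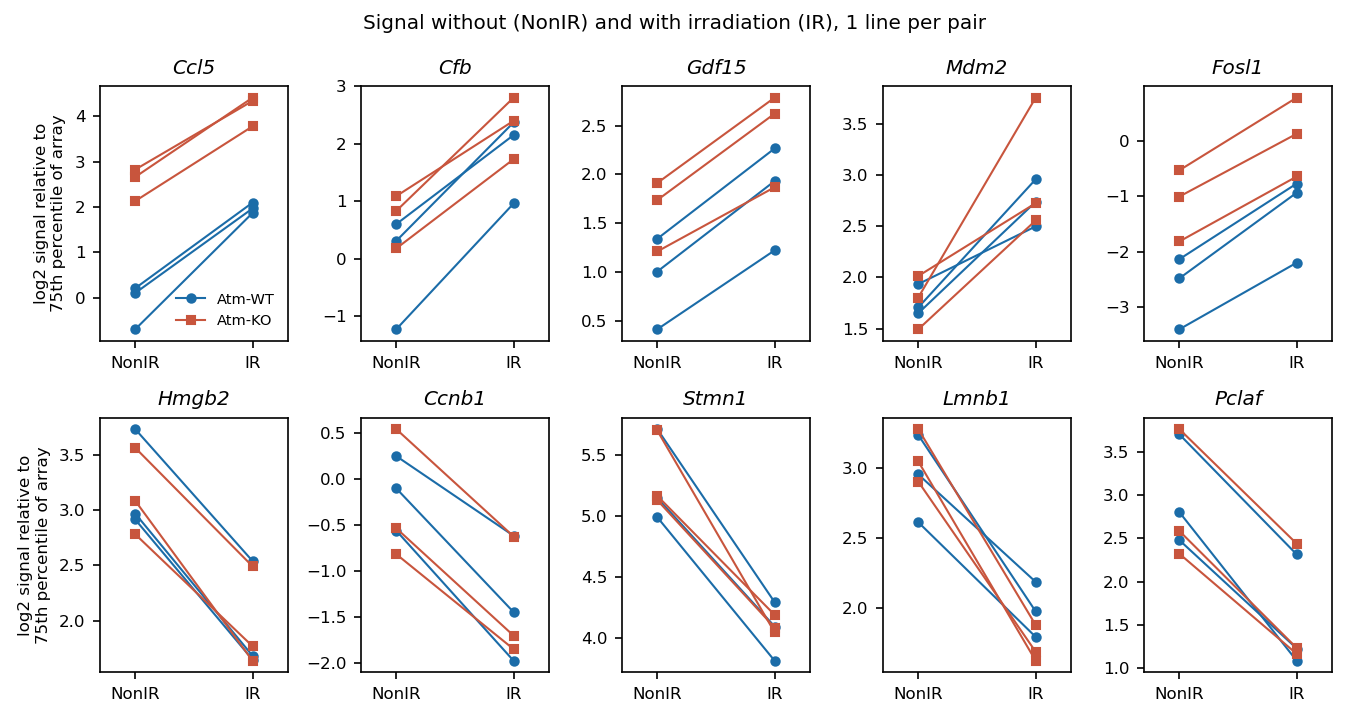
Signal of 10 genes (log2, relative to the 75th percentile of the array, vertical axis, a scale of its own for each gene) in nonirradiated and irradiated samples, with a line joining each of the 3 Atm-WT pairs (blue circles) and 3 Atm-KO pairs (red squares). All 6 lines rise for the 5 genes in the top row and fall for the 5 in the bottom row, and for Ccl5 the Atm-KO lines start above the end of the Atm-WT lines.

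Targets of p53 rose over the 6 pairs: 15 of 31 members tested rose and 2 fell (54.8% called, against 11.8% of all features). The list median was 0.50, with pair medians between 0.24 and 0.58. Within a genotype, 4 were called higher in Atm-WT and 3 in Atm-KO cells, while 26 and 25 of the 31 mean differences were above 0. Of all features, 2.26% were called in Atm-WT and 2.05% in Atm-KO cells, in either direction. Mdm2, the ubiquitin ligase that limits p53, read 1.71, 1.93 and 1.65 and then 2.96, 2.50 and 2.74 in Atm-WT samples. It read 1.80, 2.01 and 1.49 and then 3.75, 2.72 and 2.56 in Atm-KO samples. The irradiated and nonirradiated samples did not overlap, and the rise was 1.1 ± 0.18, or 2.15-fold (adjusted p = 0.006). Gdf15, a secreted stress hormone, rose by 0.85 ± 0.11 (adjusted p = 0.00218), with pair differences of 0.81, 0.92 and 0.93 in Atm-WT and 0.66, 0.87 and 0.89 in Atm-KO cells. Its effects in the genotypes differed by -0.08, with a 95% interval of -0.62 to 0.46.

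Cdkn1a, the p21 inhibitor of cyclin-dependent kinases, read 4.06, 4.66 and 4.40 and then 4.95, 5.70 and 5.42 in Atm-WT samples. Atm-KO samples read 4.70, 5.15 and 4.59 and then 4.88, 5.86 and 5.48. It rose by 0.79 ± 0.14 (adjusted p = 0.00897), by 0.18 in Atm-KO pair 1 and by 0.71 to 1.04 in the other pairs. The apoptosis genes Pmaip1, Fas and Perp rose by 1.20 ± 0.19, 0.75 ± 0.15 and 0.72 ± 0.15, and the exonuclease Aen by 0.62 ± 0.12. Ccng1 rose by 0.61 ± 0.14. The members that fell were Ddb2, which recognises ultraviolet damage, by 0.56 ± 0.12, and Sesn1, a regulator of growth signalling, by 0.56 ± 0.13. The count of 15 was 7 without Atm-WT pair 1, 7 without Atm-KO pair 3 and 21 without Atm-KO pair 1, 2 without slide 1, 7 without slide 3 and 3 without the pair block.

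Of 21 immediate early genes tested, 1 was called (4.76%, against 11.8% of all features). Fosl1, a subunit of the AP-1 transcription factor, read -3.41, -2.14 and -2.49 and then -2.20, -0.77 and -0.93 in Atm-WT samples. It read -1.82, -0.53 and -1.0 and then -0.64, 0.79 and 0.13 in Atm-KO samples. The pair differences were 1.14 to 1.55, with a mean of 1.29 ± 0.11 (adjusted p = 0.000738), and 0.78 with normexp correction, where the call was lost. The median of the list was -0.03.

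**Figure D3:**
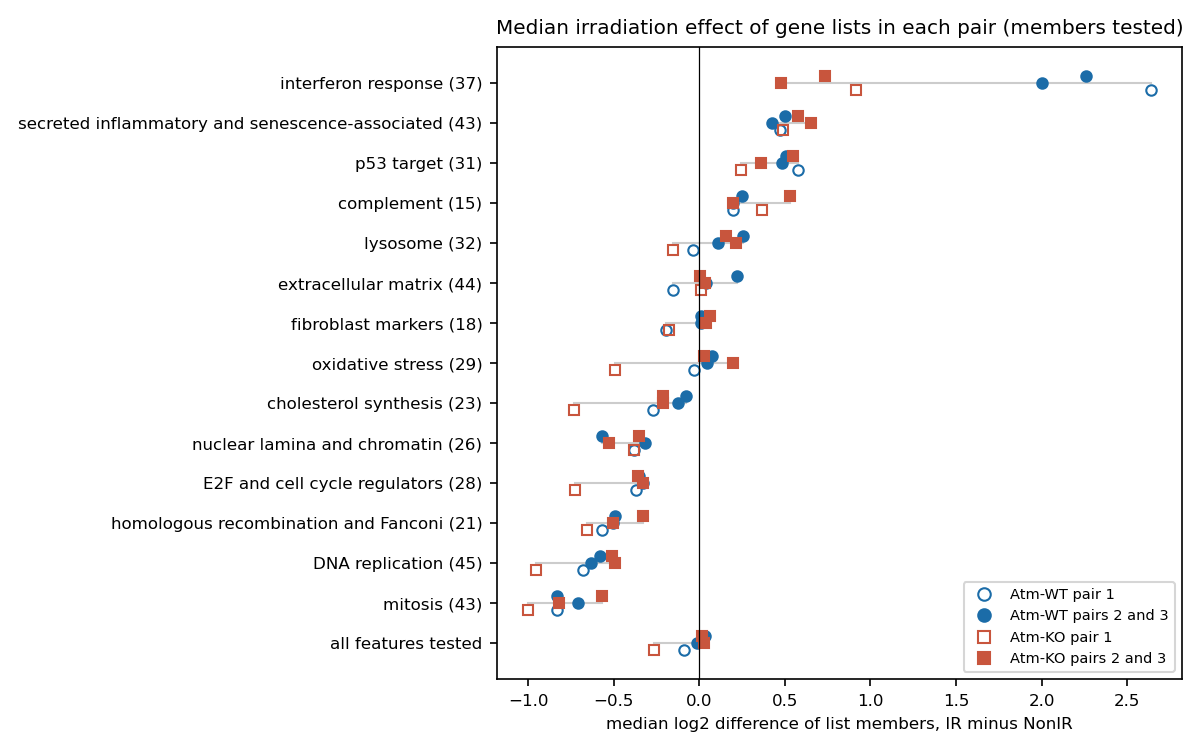
Median log2 difference (IR minus NonIR, horizontal axis) of the tested members of 14 gene lists and of all features in each of the 6 pairs, Atm-WT as blue circles and Atm-KO as red squares, pair 1 open, with the number of members tested in brackets. The proliferation lists lie below 0 in every pair, and the interferon, secreted, p53 and complement lists above 0 in every pair. Atm-KO pair 1 is the lowest in most proliferation and metabolic lists and also over all features.

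Mitosis genes fell: 30 of 43 members tested fell and 0 rose (69.8% called, against 11.8% of all features). All 43 had a negative mean difference, and the median was -0.81, a 1.76-fold fall. Pair medians were -0.83, -0.71 and -0.83 in Atm-WT pairs and -1.0, -0.82 and -0.57 in Atm-KO pairs. The count was 22 to 33 when 1 pair was left out, 10 without slide 1 and 13 without the pair block. Ccnb1, cyclin B1, which drives entry into mitosis, read 0.25, -0.10 and -0.56 and then -0.62, -1.45 and -1.98 in Atm-WT samples. It read 0.54, -0.54 and -0.82 and then -0.63, -1.71 and -1.85 in Atm-KO samples. The ranges overlapped between samples, but within pairs the fall was 0.87 to 1.42 every time, and on average Ccnb1 fell by 1.17 ± 0.12 (adjusted p = 0.00101).

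The S and G2 phase cyclin Ccna2 and the G2 cyclin Ccnb2 fell by 1.14 ± 0.13 and 1.23 ± 0.15, and their kinase Cdk1 by 0.99 ± 0.14. The checkpoint kinase Bub1b fell by 1.1 ± 0.13 (adjusted p = 0.00147), and the kinase Melk by 1.09 ± 0.13. Members of the chromosomal passenger complex fell, Birc5 (survivin) by 1.26 ± 0.17, Aurkb by 1.1 ± 0.14 and Cdca8 by 1.09 ± 0.20. Among subunits of the Ndc80 complex, which holds microtubules at the kinetochore, Spc24 fell by 1.50 ± 0.21, Nuf2 by 0.94 ± 0.14, Spc25 by 0.57 ± 0.13 and Ndc80 by 0.56 ± 0.13. Mki67, the proliferation antigen, was at -0.63 ± 0.18 and was not called (adjusted p = 0.0512).

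DNA replication genes fell: 29 of 45 members tested fell and 0 rose (64.4% called, against 11.8% of all features). In all 6 pairs 34 were lower, and the median was -0.62, a 1.53-fold fall. Pair medians ran from -0.96 in Atm-KO pair 1 to -0.49 in Atm-KO pair 2. The count was 15 without Atm-WT pair 1 and 20 to 33 without any other pair, 5 without slide 1, 16 without slide 3, 14 without the pair block and 7 with normexp correction. Of the replicative helicase, Mcm5, Mcm6, Mcm2, Mcm3 and Mcm4 fell, by 1.01 ± 0.16, 0.83 ± 0.12, 0.77 ± 0.13, 0.71 ± 0.12 and 0.46 ± 0.13. The primase subunit Prim1 fell by 0.94 ± 0.11 (adjusted p = 0.00169), the clamp Pcna by 0.74 ± 0.11 and its loader subunit Rfc4 by 0.85 ± 0.11. Genes that supply nucleotides fell too: Tk1 by 1.34 ± 0.21, Tyms by 0.83 ± 0.11 and Rrm2 by 0.62 ± 0.12. The single-strand binding proteins Rpa3, Rpa1 and Rpa2 fell by 1.0 ± 0.13, 0.90 ± 0.17 and 0.83 ± 0.18.

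Of 21 homologous recombination and Fanconi genes, 10 fell and 0 rose (47.6% called, against 11.8% of all features), with a median of -0.47. The count of 10 was 6 without Atm-WT pair 1, 6 without Atm-KO pair 3 and 1 without slide 1. Exo1, the nuclease that resects broken ends, fell by 0.97 ± 0.11 (adjusted p = 0.00142), by 0.72 in Atm-WT pair 3 and by 0.97 to 1.04 in the other pairs. The DNA translocase Rad54l fell by 0.80 ± 0.14 and the Fanconi core protein Fanca by 0.98 ± 0.15. End joining and damage signalling genes were called in 4 of 27 cases (14.8%), near the 11.8% of all features. Of the 4, 1 was higher and 3 lower, and the list median was 0.03. The lower ones were the checkpoint kinase Chek1, by 0.81 ± 0.15, Timeless, by 0.72 ± 0.15, and Rad1, by 0.63 ± 0.13. Dclre1c, the Artemis nuclease, rose by 0.54 ± 0.15, which became -0.10 with normexp correction.

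Among E2F factors and cell cycle regulators, 11 of 28 fell and 2 rose (46.4% called, against 11.8% of all features), with a median of -0.46. The count of 11 was 7 without Atm-WT pair 1, 7 without Atm-KO pair 3 and 2 without slide 1. The atypical repressors E2f7 and E2f8 fell by 0.96 ± 0.12 and 0.89 ± 0.15, and the activators of late cycle genes Mybl2 and Foxm1 by 0.97 ± 0.18 and 0.76 ± 0.18. Uhrf1, which guides DNA methylation to new strands, fell by 1.04 ± 0.16. Not all inhibitors of cyclin-dependent kinases went with Cdkn1a: Cdkn2c fell by 1.11 ± 0.16, Cdkn1c by 0.83 ± 0.14 and Cdkn1b by 0.64 ± 0.12, while Cdkn2b rose by 0.45 ± 0.12. Rb1, the retinoblastoma protein that holds E2F factors, rose by 0.70 ± 0.17.

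Genes of the nuclear lamina and of chromatin proteins were lower in 10 of 26 cases and higher in 2. This was 46.2% called, against 11.8% of all features, with a list median of -0.43. The count of 10 was 6 without Atm-WT pair 1 and 4 without slide 1. Lmnb1, lamin B1, read 3.24, 2.96 and 2.61 and then 1.97, 2.19 and 1.79 in Atm-WT samples. It read 3.28, 3.05 and 2.90 and then 1.88, 1.62 and 1.69 in Atm-KO samples. All 6 irradiated samples were below all 6 nonirradiated ones, and the fall was 1.15 ± 0.13, or 2.22-fold (adjusted p = 0.00149). Hmgb2, a DNA-bending chromatin protein, read 3.73, 2.92 and 2.97 and then 2.54, 1.65 and 1.68 in Atm-WT samples. It read 3.56, 3.08 and 2.78 and then 2.49, 1.64 and 1.77 in Atm-KO samples. Again the groups did not overlap, and Hmgb2 fell by 1.21 ± 0.11, or 2.32-fold (adjusted p = 0.000781).

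The nucleosome-binding protein Hmgn2 fell by 0.91 ± 0.11, the histone variant H2az1 by 1.05 ± 0.16, the lamina-associated protein Tmpo by 0.68 ± 0.12 and the lamin B receptor Lbr by 0.54 ± 0.13. The members that rose were the architectural proteins Hmga2, by 0.70 ± 0.14, and Hmga1, by 0.54 ± 0.15. Of 11 replication-dependent histones tested, 3 were called (27.3%, against 11.8% of all features). H2ac4 fell by 1.42 ± 0.24 and H1f4 by 0.97 ± 0.21, and H2bc12 rose by 0.49 ± 0.12. Histone paralogs share sequence, so a probe may read more than 1 of them.

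A change of at least 2-fold in every pair, in addition to the call, was found for 53 features that rose (0.288%) and 15 that fell (0.0814%). Of these, 42 and 13 carried a gene name. A feature was tested when 1 group had it above background, so dim members could enter through the group where they were high. The 42 included 10 members of the fixed lists, 5 of them interferon genes. Another 15, picked as known interferon targets after the values were seen, were not in the list. These were GTPases of the guanylate-binding, immunity-related and very large families (Gbp4, Gbp2b, Tgtp1, Gvin1), p200 family DNA sensors and relatives (Ifi204, Ifi205, Ifi211, Ifi202b), and Ifi44l, Cmpk2, Ifit3b, Oas1d, Sp110, Batf2 and Trim30d. With normexp correction 7 of the 15 lost their calls, at differences of 0.01 to 0.94: Gbp4, Ifi205, Ifi44l, Cmpk2, Oas1d, Batf2 and Trim30d. Gbp4 was well above background on 3 of 6 nonirradiated and 6 of 6 irradiated arrays. Gvin1 rose by 3.19 ± 0.31, or 9.13-fold, with pair differences from 1.84 to 4.13. Members of such families are near-identical in sequence, and a probe may read several of them.

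Class I antigen genes were among them: H2-D1 rose by 1.53 ± 0.14 and H2-Q4 by 1.36 ± 0.12. H2-Q4 read 3.37, 3.74 and 3.75 and then 4.85, 5.21 and 5.33 in Atm-WT samples, and 4.38, 5.32 and 5.38 and then 5.43, 6.53 and 6.71 in Atm-KO samples. Its pair differences, 1.05 to 1.59, were among the narrower ones. The chemokine Cxcl9 rose by 2.72 ± 0.19, the chemokine receptor Cxcr6 by 2.13 ± 0.16, and the atypical receptor Ccrl2 by 1.73 ± 0.14. With normexp correction these 3 were at 0.77, 0.25 and 0.35 and lost their calls. Cxcr6 was well above background on 3 of 6 nonirradiated arrays, spread over both genotypes, and on 6 of 6 irradiated ones. It thus entered the test only through irradiated groups. Saa3, an acute phase protein, rose by 1.57 ± 0.14 although its level in nonirradiated samples ran from -3.25 to 1.35. Xdh, xanthine dehydrogenase, rose by 1.40 ± 0.14 from nonirradiated levels of -2.81 to 0.07.

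The probe of Lhx5, a homeobox factor of the nervous system, was well above background on 0 of 6 nonirradiated and on all 6 irradiated arrays. It entered the test only through the irradiated group, so its fold is given as a bound, at least 2.61-fold higher, with no weight on its p. For that bound each nonirradiated array was given its own Lhx5 signal or, where greater, the dimmest signal that passed the background flag. With normexp correction the log2 difference was 0.14 and was not called. The size of its change thus differed between the background corrections.

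The 13 named genes that fell at least 2-fold in every pair included Pclaf, the PCNA clamp-associated factor, by 1.37 ± 0.12, the kinetochore proteins Spc24 and Ska1, by 1.50 ± 0.21 and 1.44 ± 0.15, and Hmgb2. Mxd3, a partner of Max, fell by 1.54 ± 0.20, and Klf14, a zinc finger factor, by 1.37 ± 0.11. Mia, a secreted cartilage and melanoma protein, read -0.12, -0.23 and 0.22 and then -2.11, -1.65 and -1.78 in Atm-WT samples. It read 0.91, 0.01 and 0.84 and then -2.06, -1.13 and -0.92 in Atm-KO samples. The irradiated samples were all below the nonirradiated ones, and Mia fell by 1.88 ± 0.21, or 3.68-fold (adjusted p = 0.00142). The others were Wfdc18, Ostn, Efcab11, Cd96, Hsd17b1 and Calml4, with falls of 1.20 to 1.66. Cd96 was well above background on 6 of 6 nonirradiated and 3 of 6 irradiated arrays, and entered the test only through nonirradiated groups.

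**Figure D4:**
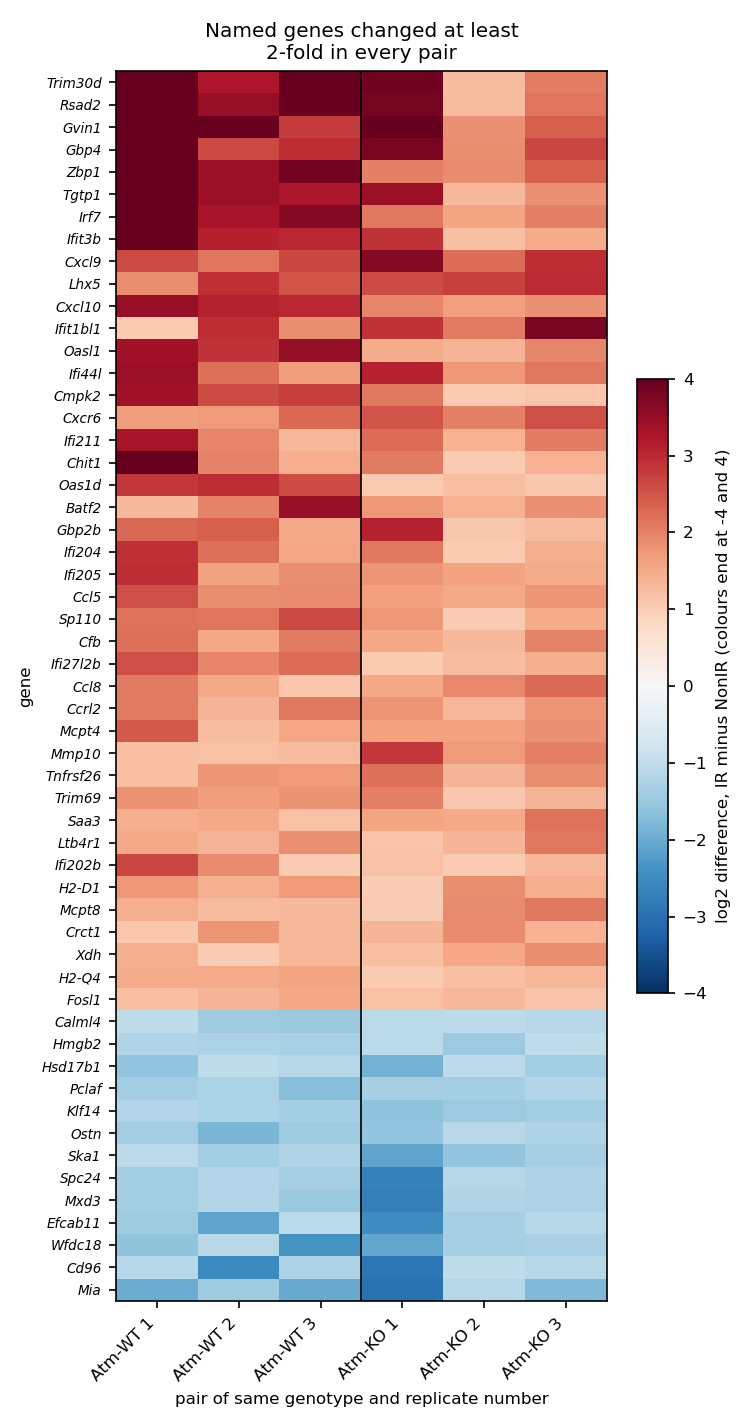
Pair differences (log2, IR minus NonIR, colour, ending at -4 and 4) of the 42 named genes that rose and the 13 that fell by at least 2-fold in every pair, in rows ordered by mean difference, with the 3 Atm-WT pairs left of the line and the 3 Atm-KO pairs right of it. The rows were chosen on these values, and in the top pair of rows the differences range from 5.51 (Trim30d, Atm-WT pair 1) to 1.26 (Rsad2, Atm-KO pair 2).

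Some changes were close to equal in every pair. Rftn1, raftlin, a protein of membrane rafts, rose by 0.46 to 0.54, and Lbh, a transcription cofactor, by 0.44 to 0.64. Zfp296, a zinc finger protein, rose by 0.51 to 0.67. Id2, an inhibitor of helix-loop-helix factors, fell by 0.66 to 0.79, Hmgn2 by 0.82 to 1.02, Dscc1, a subunit that loads the replication clamp, by 0.96 to 1.25, and the imprinted gene Mest by 0.71 to 0.93. Adh7, an alcohol dehydrogenase, fell by 0.43 to 0.58. These genes were picked for small spread, so the evenness describes them and is not a test. Over all called features the median standard deviation of the 6 pair differences was 0.44 for features that rose and 0.33 for those that fell.

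The calls of 45 of 269 called genes examined held in each of the 19 alternative settings. They included the interferon targets Cxcl10, Irf7, Rsad2, Zbp1, Oasl1 and Parp14, the secreted factors Ccl5, Ccl2 and Cfb, and the p53 target Mdm2. Among genes that fell were Bub1b, Melk, Aurkb, Birc5, Ccnb2, Spc24 and Ska1 of mitosis, Rpa3, Tk1 and Exo1 of DNA synthesis and repair, and E2f7, Lmnb1, Hmgb2, Hmgn2, H2az1, Mxd3, Mia and Stmn1. Stmn1, stathmin, which destabilises microtubules, fell by 1.22 ± 0.13, with nonirradiated signals of 4.99 to 5.71 and irradiated ones of 3.81 to 4.29.

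The remaining lists had between 4.35% and 18.2% of their members called, against 11.8% of all features. Extracellular matrix genes were higher in 6 and lower in 2 of 44 cases (18.2%), with a median of 0.01. Col18a1, the source of endostatin, rose by 0.75 ± 0.14 and the crosslinking enzyme Loxl2 by 0.59 ± 0.12, and Eln, elastin, fell by 0.65 ± 0.12. Of 32 lysosome genes, 3 rose and 0 fell: Scarb2 by 0.59 ± 0.11, Gla by 0.47 ± 0.11 and Tpp1 by 0.42 ± 0.11. Of 29 oxidative stress genes, 3 rose and 2 fell (17.2%). Srxn1, sulfiredoxin, rose by 0.60 ± 0.11, and Txn1 and Prdx1 fell by 0.47 ± 0.11 and 0.45 ± 0.12. Of 23 cholesterol synthesis genes, Tm7sf2 was the only one called, and it fell by 0.71 ± 0.20. Of 21 genes of the unfolded protein response, Ddit3 rose by 0.41 ± 0.11 and Manf fell by 0.47 ± 0.12. Smooth muscle genes were higher in 2 and lower in 1 of 24 cases (Cald1 rose by 0.79 ± 0.17 and Csrp2 fell by 0.87 ± 0.14). Of 32 focal adhesion and cytoskeleton genes 1 rose and 2 fell, Stmn1 among them.

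The fibroblast label was checked against markers. All 18 of 18 fibroblast markers were well above background on all 12 arrays, none was called, and their median difference was -0.02. Of other cell types, 8 of 14 epithelial, 7 of 14 endothelial, 13 of 22 skeletal muscle, 11 of 17 neural, 11 of 24 macrophage and blood cell and 16 of 20 adipocyte genes were above background on all 12 arrays. Elf3 and Ocln (epithelial), Pecam1 (endothelial), Ckm, Myf5 and Myf6 (skeletal muscle), Snap25 (neural) and Lep (adipocyte) were so on none. In bulk samples, a change in the number of cells of a type and a change of RNA per cell cannot be told apart.

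Of the markers of the 6 other cell types, 14 of 87 tested were called (16.1%, against 11.8% of all features): 3 of 10 endothelial, 2 of 9 epithelial, 3 of 17 skeletal muscle, 2 of 14 neural, 2 of 20 macrophage and blood cell and 2 of 17 adipocyte genes. The summed endothelial signal was higher in the irradiated sample of 6 of 6 pairs (3.05 to 4.10 without and 3.37 to 4.35 with irradiation). The sum is weighted to bright genes such as Flt1 (1.77 to 3.95). Kdr, Flt1 and Eng rose by 0.88 ± 0.17, 0.54 ± 0.14 and 0.51 ± 0.14. Of the 10 genes tested, 8 had a positive and 2 a negative mean difference, with a median of 0.22, and 1 was lower in all 6 pairs. With normexp correction the median was -0.20 and 0 were called, and 0 were called without slide 3. The summed macrophage and blood cell signal was higher in 2 of 6 pairs (1.73 to 4.28 and 1.86 to 3.84), with Cd53 and Fcgr1 called higher, by 0.99 ± 0.26 and 0.90 ± 0.25, and at -0.05 and -0.13 with normexp correction. Its part in the rise of interferon and chemokine genes was not tested. Of the adipocyte and lipid list, Apod, a lipid carrier, rose by 1.58 ± 0.19 (adjusted p = 0.00149) and Pparg fell by 0.52 ± 0.11. Cldn7, an epithelial tight junction protein, fell by 1.30 ± 0.16 and Krt18 rose by 0.65 ± 0.14. Of skeletal muscle genes, Tnnt1 fell by 0.57 ± 0.11. Myh3 and Myl1 were at 1.37 ± 0.36 and 1.08 ± 0.28, and at -0.00 and -0.03 with normexp correction. Myh3 was well above background on 2 of 6 nonirradiated and 4 of 6 irradiated arrays, and Myl1 on 3 and 4. Both entered the test only through an irradiated group, so they are counted among the 14 with no weight on their p. Pair 1 of each genotype stood apart in Myh3 and Myl1: without irradiation Myl1 read -0.57 in Atm-WT and 0.66 in Atm-KO pair 1 and -7.41 to -5.47 in the other pairs. Myh3 read -1.52 and -0.21 there and -7.85 to -7.29 elsewhere. Of neural genes, Gfap fell by 0.98 ± 0.26 and S100b by 0.44 ± 0.12. In some of the 14 called markers 1 pair went the other way. These were Gfap (0.31 in Atm-KO pair 2), Fcgr1 (-0.41 in Atm-WT pair 1), Eng (-0.05 in Atm-KO pair 1) and Myh3 (-0.41 in Atm-WT pair 2).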

How the data were processed

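Spot intensity in the scanner files was extracted with Feature Extraction 10.7.1.1, per the file headers, while the submitters' processing notes name version 11.0. A deposited matrix holds log2 values. Over 41174 probes it matched log2 processed intensity after scaling to the 75th percentile of the array and then centring probes on their medians (r at least 0.9975), which gave its scale, centring and direction; column medians were -0.426 to 0.268.

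Here, control spots were left out, and so were outlier spots where the probe had another spot without that flag. The log2 processed intensity minus each array's 75th percentile, over all noncontrol spots, was taken. Probes were named by RefSeq accession (25097 of 41174), and the brightest probe stood for a gene. Features entered the test if all 3 arrays of some group had them well above background. The fit was limma 3.58.1 in R 4.3.3, with the 6 pairs as a fixed block and 5 residual and 4.57 prior degrees of freedom; its code was tested on simulated data. The difference between genotypes added an irradiation term for each genotype (4 residual degrees of freedom). Normexp (offset 50) used median signal and background, in place of the planned mean signal.

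The labels do not say what replicate numbers share. Same-numbered samples deviated together from their group means (correlations 0.481 to 0.852 in Atm-WT, 0.269 to 0.510 in Atm-KO cells). Samples with different numbers gave -0.696 to 0.335, and nonirradiated Atm-KO 2 correlated more with irradiated Atm-KO 3 (0.335) than with its own number (0.269). Deviations from a mean of 3 samples sum to 0, so positive values within numbers push those between numbers down. Same-numbered samples also lay on the same slide, so these correlations cannot tell a shared embryo or culture from a shared slide. Both samples of each pair had the same sex-linked signal, Ddx3y in 3 pairs and Xist in the other 3, with 0 mixed pairs.

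The 26 lists, the members and the tests were chosen with earlier results of these data known. Named genes were a fixed set, those with the largest change over all pairs or on average, those with the most even change, and up to 4 called members of each list by adjusted p; other called list members, and genes changed at least 2-fold in every pair, were named after their values were seen. Some list members are counted in their lists but not reported singly here. Headers name the mm9 build; promoter coordinates are RefSeq's GRCm38.p6, and the 2 were not mixed.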

Additional observations from a re-analysis of the deposited data

Results flagged for a closer look

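Values of the 6 pairs were compared for 1 pair far from the others in 146 summaries, lists and genes, and 17 had one. For a single independent item the threshold gives about 1 in 20 by chance. The 146 share pairs and members, and some genes were picked on their pair values, so 17 cannot be read against that rate. Of the 17, 13 were in Atm-KO pair 1. Its median absolute difference over all features was 0.631 (0.226 to 0.289 elsewhere). Its median over features called lower was -1.07 (-0.68 to -0.52 elsewhere). Over all features its median difference was -0.27 (-0.09 to 0.03 elsewhere), and the values that follow are not corrected for that. Its list medians stood below those of the other pairs for E2F and cell cycle regulators (-0.73), replication-dependent histones (-1.05), adipocyte and lipid genes (-0.40), cholesterol synthesis (-0.73) and oxidative stress genes (-0.49). So did its differences for Mxd3 (-2.74), Spc24 (-2.71), H2ac4 (-2.91), H2az1 (-1.84), Tm7sf2 (-1.83) and Manf (-0.89). In Atm-KO pair 2, the median over features called higher was 0.61, against 0.80 to 0.89 in the others. Atm-WT pair 1 stood apart for Ccl5 (2.57) and E2f8 (-1.62), and Atm-WT pair 3 for Exo1 (-0.72). The causes were not tested.

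Irradiation effects that differed between genotypes in limma's interaction test were those of Isg15 (-2.40, Atm-KO minus Atm-WT), Oas1a (-2.99), Oas1f (-2.81) and Usp18 (-2.43). In each, 3 of 3 Atm-WT pairs rose more than 3 of 3 Atm-KO pairs.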

How the results depend on the processing

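The number of calls moved with the processing. A change of block or filter left each difference as it was, so signs could not turn in those settings. Leaving out pairs or slides looked again at features called on the same pairs. Normexp correction turned the sign of 269 of the 2175 features. The 2175 features called became 459 without the replicate block (223 higher, 236 lower), 791 with slide as the block (344 and 447), 290 with normexp correction (149 and 141), 505 with no filter on dim probes (278 and 227), 366 without slide 1 (233 and 133) and 920 without slide 3 (487 and 433). Median centring gave 2503 lower. Leaving out 1 pair gave 914 to 2940 calls, 457 to 1288 higher and 457 to 1652 lower. The count of features alike in all pairs, 4071, was 2333 with normexp correction. The 4 differences between genotypes became 1 without the replicate block, 9 with normexp correction, 0 with quantile normalization, 2 with median centring, 0 with no filter, 13 among features above background on all 12 arrays, and 0 to 3 when 1 pair was left out, which leaves 2 pairs in 1 genotype. Among 269 called genes, 45 kept the call in every setting. Among these 269, signs turned only with normexp correction, for Areg (-0.11), Cd53 (-0.053), Dclre1c (-0.10), Ereg (-0.059), Fcgr1 (-0.13), Gsta2 (-0.088), Myh3 (-0.0011), Myl1 (-0.027), Oas3 (-0.15), Serpinb2 (-0.13) and Tnfrsf26 (-0.21). The causes were not tested. Signal over background limits genes not well above it on every array.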
